A study of Homo sapiens with 9 samples.

Results

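The LIN28, IGF2BP and HMGA genes were followed in LAN5 cells in which MYCN or HAND2 had been targeted by siRNA. They are 7 genes named by symbol (LIN28A, LIN28B, IGF2BP1, IGF2BP2, IGF2BP3, HMGA1 and HMGA2), and 6 of them have a row among the 25084 genes of the deposited table. HMGA2 is not analysed here. LAN5 is an established human neuroblastoma cell line, a MYCN-amplified model of a childhood tumour of the sympathetic nervous system. All 9 libraries came from this 1 line, grown in serum-containing RPMI medium, electroporated with an siRNA by Nucleofector and lysed for total RNA 72 h later. The 3 groups of 3 libraries received the control siRNA (siCTR), 1 siRNA against MYCN (siMYCN, labelled siMYCN_2) or 1 siRNA against HAND2 (siHAND2, labelled siHAND2_3). Effects of a single siRNA sequence on other transcripts cannot be told apart from effects of its target. The labels number the replicates without saying whether they were separate cultures, so the p-values measure the spread between these libraries, which may be technical.

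These genes are called oncofetal because most of them are active in embryonic tissue, fall silent in most adult tissue and return in many tumours. IGF2BP2 is an exception, as it stays on in adult tissue. LIN28A and LIN28B are RNA-binding proteins that hold the let-7 microRNA precursors back from maturation, and let-7 in turn represses LIN28B, the IGF2BP genes and HMGA2. The IGF2BP proteins bind messenger RNAs, in part through m6A marks, and shield them from decay. HMGA1 and HMGA2 are small architectural proteins that bind AT-rich DNA and bend it. In neuroblastoma LIN28B has been described as a driver that lowers let-7 and raises MYCN protein.

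The let-7 family and its sites give the sequence basis of this circuit. All 9 distinct mature let-7 and miR-98 sequences in the RefSeq table (GRCh38.p14) share the seed, bases 2 to 8. The 3 arms printed here come from precursors whose host genes are described further on, with the seed in capitals.

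hsa-let-7a-5p: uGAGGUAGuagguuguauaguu
hsa-let-7c-5p: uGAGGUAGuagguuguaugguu
hsa-let-7b-5p: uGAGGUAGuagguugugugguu

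The complement of the seed, CTACCTC, was searched on the transcribed strand of the 3′ untranslated region (3′UTR) of each canonical transcript in the GENCODE annotation lifted to GRCh37. It was found in 9.72% of 19064 genes. LIN28B held 4 matches in 4549 bases and IGF2BP1 held 4 in 6701 bases. Among genes with a 3′UTR of 80% to 120% of the same length, 0.198% held at least as many as LIN28B and 0.537% at least as many as IGF2BP1. HMGA2 held 4 matches in 2999 bases, which 0.0909% of like-length genes reach. IGF2BP2, IGF2BP3, HMGA1 and LIN28A held 1 match each, which 12.7%, 12.4%, 8.43% and 15.8% of like-length genes also have. The first match of each measured gene is shown with its flanks to make the shared core visible, 5′ to 3′, with the 7 complementary bases in capitals. The base after the core is an a, which extends the match to 8 bases, in every site shown except that of HMGA1. A match is a description of the letters and shows no binding.

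LIN28A: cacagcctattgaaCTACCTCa
LIN28B: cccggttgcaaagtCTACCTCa
IGF2BP1: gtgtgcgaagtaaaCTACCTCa
IGF2BP2: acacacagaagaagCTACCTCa
IGF2BP3: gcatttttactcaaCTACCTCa
HMGA1: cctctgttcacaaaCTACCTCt

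Values are CPM, reads of a gene per library after all libraries are brought to one total. Depth, read from the step between low values, was 21.1 to 32.7 M assigned reads per library, and at 1 CPM the counting error is 17.5% to 21.8% of the value. MYCN averaged 1842 ± 54.2 CPM (SD, n = 3) in siCTR and stood at 70.0% of that in siMYCN and 49.6% in siHAND2, so MYCN was lower in the HAND2 libraries than in the MYCN libraries. HAND2 averaged 501 ± 13.7 CPM in siCTR and stood at 113.9% in siMYCN and 54.2% in siHAND2. All 10 noradrenergic neuroblastoma markers checked averaged at least 1 CPM, while none of the Schwann, immune, endothelial or pluripotent markers in the table did. The noradrenergic sum was 2696 to 2855 CPM in siCTR, 3322 to 3443 CPM in siMYCN and 2895 to 3016 CPM in siHAND2. Single markers went both ways in siHAND2, with DBH at 49.4% and TH at 48.6% of siCTR, and ISL1 at 155% and STMN2 at 194%. Of 6 fibroblast markers 5 averaged at least 1 CPM, and their summed level was 216 to 230 CPM in siCTR, 261 to 270 CPM in siMYCN and 559 to 639 CPM in siHAND2. Tests ran over the 14495 genes that reached 1 CPM in 3 or more libraries, by limma on log2(CPM + 1), and a gene was called at a Benjamini-Hochberg adjusted p below 0.05 over all of them. Fold changes on this scale understate the change of genes near 1 CPM.

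Of the 7 genes, 5 passed the filter on low values. HMGA1 and IGF2BP1 were lower in siMYCN than in siCTR, and HMGA1, IGF2BP1 and IGF2BP2 were lower in siHAND2. LIN28B and IGF2BP3 passed the threshold in neither contrast. The called differences were small, with the knockdown groups at 81.2% to 89.6% of siCTR. In these bulk libraries, fewer cells of a type and less RNA per cell cannot be told apart. The contrasts share the siCTR libraries, so a control library that stands high or low moves both.

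Per kilobase of canonical transcript, HMGA1 was the most abundant of the 6 in siCTR, at 136.6 ± 7.43 CPM per kb (SD, n = 3). IGF2BP1 followed at 21.5 ± 0.859 CPM per kb and IGF2BP3 at 18.6 ± 0.722, and the ranges of this pair did not overlap in siCTR. In siMYCN they did, with the lowest IGF2BP1 library at 17.3 CPM per kb and IGF2BP3 at 17.7 to 18.1. LIN28B stood at 8.76 ± 0.667 and IGF2BP2 at 7.67 ± 0.545 CPM per kb, and their siCTR ranges overlapped (8.06 to 9.39 against 7.30 to 8.29). LIN28A was lowest at 0.0348 CPM per kb. With the union of all exons as the length, the order of the means was the same, but IGF2BP3 stood at 9.30 CPM per kb in siCTR against 19.7 for IGF2BP1, so the closeness of this pair depends on the length used.

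**Figure D1:**
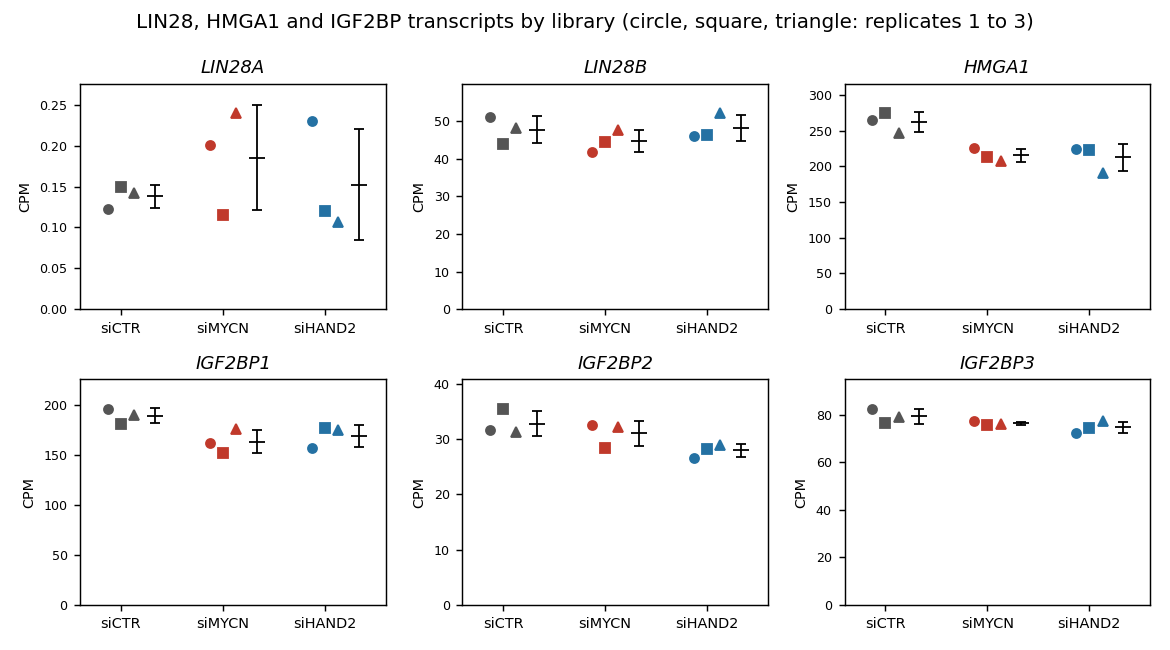
CPM of the 6 genes in each library (vertical axes from 0, a separate scale per gene), with replicates as circle, square and triangle and the mean ± SD of 3 libraries beside each group. HMGA1 and IGF2BP1 lie below siCTR in all knockdown libraries, IGF2BP2 in the siHAND2 libraries, LIN28B and IGF2BP3 overlap siCTR, and LIN28A stays under 0.25 CPM.

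LIN28A, the paralog that marks pluripotent cells, was close to the detection limit. Its row (chromosome 1, 26410817 to 26429728 in GRCh38, plus strand) read 0.122, 0.150 and 0.142 CPM in siCTR. With siMYCN it read 0.201, 0.115 and 0.240 CPM, and with siHAND2 0.230, 0.120 and 0.106 CPM. Pooled over a group these are about 11, 15 and 13 reads, or 0.137 CPM in siCTR (95% exact Poisson interval 0.0682 to 0.245, counting error only). The siMYCN interval of 0.105 to 0.309 CPM and the siHAND2 interval of 0.0827 to 0.265 CPM both overlap it. No difference between groups was detectable at this depth, and LIN28A was not tested.

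LIN28B, the paralog found in neuroblastoma, was the expressed member of the pair (chromosome 6, 104936616 to 105083332, plus strand). It read 51.2, 43.9 and 48.1 CPM with siCTR, 41.9, 44.3 and 47.7 with siMYCN and 46.0, 46.3 and 52.2 with siHAND2. All 3 groups overlapped. The log2 difference was -0.09 in siMYCN (95% interval -0.23 to 0.05, limma, Benjamini-Hochberg adjusted p = 0.298) and 0.01 in siHAND2 (-0.13 to 0.15, adjusted p = 0.901). The siHAND2 value turned to -0.02 under median-ratio rescaling and under quantile normalization, and to -0.04 without siCTR replicate 2 and without siHAND2 replicate 3. The intervals bound the difference but do not show equal levels. LIN28B-AS1, an antisense gene that shares 4832 bases of its span with LIN28B, read 1.46 to 2.97 CPM. The sources used here do not say whether counting used strand, so reads of such a pair cannot be told apart.

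HMGA1 (chromosome 6, 34236873 to 34246231, plus strand) showed the largest difference of the 5 tested genes in both contrasts against siCTR. It read 265, 275 and 247 CPM with siCTR, 226, 214 and 208 with siMYCN and 225, 223 and 191 with siHAND2. Every knockdown library was below every siCTR library, and the 2 knockdown groups overlapped each other. The siCTR mean was 262 ± 14.3 CPM (SD, n = 3), against 216 ± 9.29 for siMYCN and 213 ± 18.7 for siHAND2. With siMYCN HMGA1 fell by 0.28 on the log2 scale (standard error 0.06, limma, adjusted p = 0.00156), and with siHAND2 it fell by 0.30 (standard error 0.06, adjusted p = 0.00106). Both calls held in all 10 alternatives other than leaving out 1 library, and in the 9 fits that left out 1 library. In those 10 alternatives, limma adjusted p was 1.6e-05 to 0.0169 in siMYCN and 7.5e-06 to 0.0147 in siHAND2. Processed HMGA1 pseudogenes could draw reads from it: HMGA1P2 read up to 0.150 CPM and HMGA1P8 0.160 to 0.475 CPM.

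IGF2BP1, the family member with the longest 3′UTR and the 4 let-7 matches counted above, lies on chromosome 17 (48997385 to 49056145, plus strand). It read 196, 181 and 190 CPM with siCTR, 163, 152 and 176 with siMYCN and 157, 177 and 175 with siHAND2. No knockdown library reached the lowest siCTR library, but siCTR replicate 2 at 181 CPM and siHAND2 replicate 2 at 177 CPM were close. With siMYCN IGF2BP1 fell by 0.21 on the log2 scale (standard error 0.06, limma, adjusted p = 0.00818), and with siHAND2 it fell by 0.16 (adjusted p = 0.0439). The siMYCN call held in 10 of 10 alternatives other than leaving out 1 library. It missed the threshold without siMYCN replicate 2 (-0.16, adjusted p = 0.0502). The siHAND2 call held in 8 of those 10: it was lost with no filter on low values (adjusted p = 0.0743) and with no intensity trend (adjusted p = 0.121). Leaving out siCTR replicate 1 (-0.13), siCTR replicate 3 (-0.16) or siHAND2 replicate 1 (-0.10) ended it too. AC091133.3 and AC091133.5, which overlap IGF2BP1, read at most 0.478 CPM.

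IGF2BP2, the member that stays on in adult tissue and is linked to metabolism and diabetes risk, lies on chromosome 3 (185643130 to 185825042, minus strand). It read 31.7, 35.5 and 31.3 CPM with siCTR, 32.7, 28.4 and 32.1 with siMYCN and 26.7, 28.2 and 29.1 with siHAND2. The siMYCN libraries overlapped siCTR, with replicate 2 the lowest of them, and all siHAND2 libraries were below siCTR. In siHAND2 IGF2BP2 stood at 85.2% of siCTR and fell by 0.22 on the log2 scale (standard error 0.07, limma, adjusted p = 0.0185). That call ended when siCTR replicate 2 (-0.17) or siHAND2 replicate 1 (-0.19) was left out. In siMYCN the difference was -0.08 (95% interval -0.22 to 0.06, adjusted p = 0.390). IGF2BP2-AS1, inside the IGF2BP2 span on the other strand, read at most 0.359 CPM.

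IGF2BP3, an oncofetal member often used as a tumour marker, lies on chromosome 7 (23310209 to 23470491, minus strand). It read 82.5, 76.3 and 79.2 CPM with siCTR, 77.2, 75.9 and 76.1 with siMYCN and 72.5, 74.3 and 77.3 with siHAND2. Both knockdown groups overlapped siCTR through its replicate 2. The log2 difference was -0.05 with siMYCN (95% interval -0.15 to 0.04, limma, adjusted p = 0.381) and -0.09 with siHAND2 (-0.18 to 0.01, adjusted p = 0.162). Under rescaling IGF2BP3 passed the threshold in siHAND2 (-0.12, adjusted p = 0.0417 by median ratio and 0.0449 by quantiles) and in siMYCN by quantiles (-0.12, adjusted p = 0.0438). Its 3′ end overlaps MALSU1, a mitochondrial ribosome factor on the other strand, over 1521 bases. MALSU1 read 11.8 to 17.4 CPM and was called lower in siMYCN (-0.27, adjusted p = 0.0206), a call that ended when siCTR replicate 2, siCTR replicate 3 or siMYCN replicate 1 was left out. AC021876.1, also inside the span, read at most 0.122 CPM.

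In siMYCN against siCTR, 2 of the 5 tested genes were called, both lower. Over all tested genes, 35.9% were called, 24.5% higher and 11.4% lower. The same 2 genes were those whose libraries did not overlap siCTR, as was the case for 49.5% of all tested genes (16.1% lower). The count fell to 1 without siMYCN replicate 2. In siHAND2 against siCTR, 3 of the 5 were called, all lower, against 29.9% of all tested genes, 18.1% higher and 11.8% lower. Their libraries did not overlap siCTR, which held for 42.4% of all tested genes (16.6% lower). The count was 2 without any 1 of the 3 siCTR replicates and 1 without siHAND2 replicate 1. The median log2 difference of the 5 genes was -0.09 in siMYCN and -0.16 in siHAND2, beside 0.06 and 0.04 over all tested genes. With 5 genes, these shares describe the genes themselves and say nothing about a class.

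The direction of calls over all genes depended on scaling. Higher genes made up 68.3% of calls in siMYCN and 60.6% in siHAND2 on the deposited CPM. After median-ratio rescaling they made up 51.7% and 48.3%, and after quantile normalization 49.3% and 47.8%. The falls of HMGA1, IGF2BP1 and, in siHAND2, IGF2BP2 kept their direction and their call under both rescalings.

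**Figure D2:**
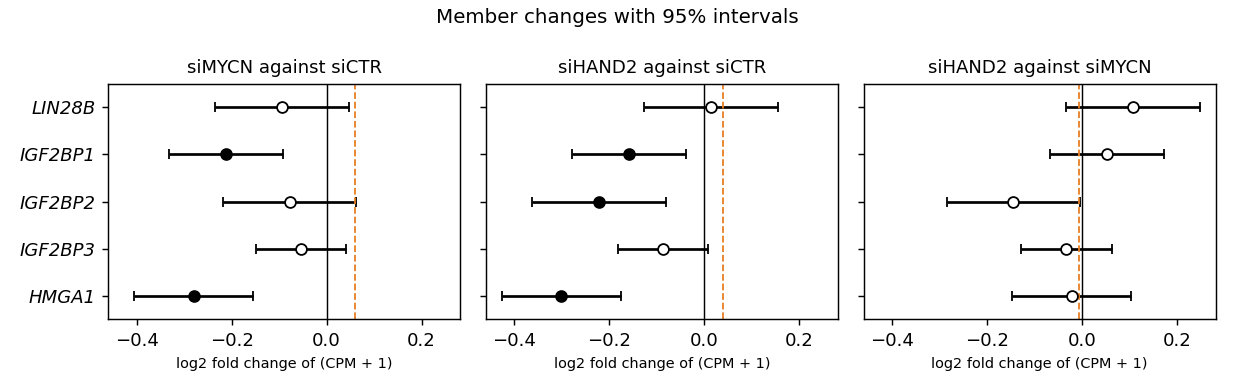
Log2 fold change of (CPM + 1) of the 5 tested genes in the 3 contrasts, with 95% limma intervals. Filled points passed the adjusted threshold, and the dashed line is the median of all 14495 tested genes. Filled points are HMGA1 and IGF2BP1 in siMYCN, those 2 and IGF2BP2 in siHAND2, and none between the knockdowns.

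Directly between siHAND2 and siMYCN, 0 of the 5 genes were called by limma, where 26.9% of all tested genes were. IGF2BP2 came nearest to the threshold (log2 difference -0.14, standard error 0.07, limma, adjusted p = 0.121). None of the 5 had groups that did not overlap, against 38.7% of all tested genes. The count was also 0 with precision weights, and it was 1 without siMYCN replicate 2, where IGF2BP2 differed by -0.21 (adjusted p = 0.0417). HMGA1 differed by -0.02 (-0.15 to 0.10, adjusted p = 0.825), a value that turned to 0.02 under quantile normalization, and also turned positive without siMYCN replicate 1 (0.01) or siHAND2 replicate 3 (0.05). IGF2BP1 differed by 0.05 (-0.07 to 0.17, adjusted p = 0.536), IGF2BP3 by -0.03 (-0.13 to 0.06, adjusted p = 0.637) and LIN28B by 0.11 (-0.03 to 0.25, adjusted p = 0.262). A fall called in 1 knockdown and not in the other, as for IGF2BP2, is thus not shown to differ between them.

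MYC-family factors bind the E-box CACGTG, so the 250 bases before annotated starts of these genes were searched for it. The motif is its own reverse complement, so 1 search covers both strands. RefSeq promoter windows (GRCh38.p14) matched LIN28B, IGF2BP2, IGF2BP3 and HMGA1, with 7 windows in all. IGF2BP3 held 2 matches, 174 and 146 bases before its start, a second LIN28B start held 1 match 47 bases before it, and the other 5 windows held none. Of 35116 windows, 6.34% held at least 1 match and 0.535% at least 2. The IGF2BP3 window (minus strand) and the first HMGA1 window (plus strand) are shown as the window with the most matches, of a gene that was not called, and the window of the gene with the largest falls, which holds none. Nothing about binding of MYCN follows from either. The windows are chr7:23470492-23470741 and chr6:34236623-34236872, and capitals mark CACGTG.

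IGF2BP3: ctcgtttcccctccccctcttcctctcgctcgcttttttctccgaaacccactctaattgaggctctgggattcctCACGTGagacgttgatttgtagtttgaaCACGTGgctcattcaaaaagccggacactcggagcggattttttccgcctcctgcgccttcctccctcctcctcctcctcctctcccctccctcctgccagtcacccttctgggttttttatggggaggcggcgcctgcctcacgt
HMGA1: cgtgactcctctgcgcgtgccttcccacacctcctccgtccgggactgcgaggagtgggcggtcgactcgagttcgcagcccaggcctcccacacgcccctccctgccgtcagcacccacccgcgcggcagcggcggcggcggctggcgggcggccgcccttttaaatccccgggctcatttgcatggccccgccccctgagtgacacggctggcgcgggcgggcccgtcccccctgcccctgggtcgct

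LIN28 proteins recognise a GGAG motif in the terminal loop of let-7 precursors. Of 12 let-7 and miR-98 hairpins in the RefSeq table, 9 hold GGAG after the 5′ arm, and let-7a-3, let-7b and miR-98 do not. Mature microRNAs were not measured, so the host genes, long transcripts that carry the hairpins on the same strand, are the nearest readout of let-7 in these libraries. Host transcript levels need not follow the mature microRNA. The list of hosts covers 9 of the 12 hairpins. SPACA6, WDR82 and AC048341.1 carry let-7e, let-7g and let-7i on the same strand but are not in the list. Counts and medians of hosts below are therefore for the listed hosts only. The hairpins let-7c and let-7a-2 hold the motif and let-7b does not. They are printed because their hosts MIR99AHG, MIR100HG and MIRLET7BHG were the 3 called, with GGAG after the 5′ arm in capitals. The last GGAG marked in let-7c lies at the 3′ end of the hairpin, not in its loop.

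let-7c: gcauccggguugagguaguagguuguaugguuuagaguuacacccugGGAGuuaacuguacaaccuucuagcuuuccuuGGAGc
let-7a-2: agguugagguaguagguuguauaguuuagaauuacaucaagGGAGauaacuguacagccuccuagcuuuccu
let-7b: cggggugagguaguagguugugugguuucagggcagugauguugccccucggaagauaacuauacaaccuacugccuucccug

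MIR99AHG, MIR100HG and MIRLET7BHG were higher in siHAND2 than in siCTR and than in siMYCN. In siHAND2 3 of 5 tested hosts were called against siCTR, all higher, beside 29.9% of all tested genes (18.1% higher). The list median was 0.24 on the log2 scale, beside 0.04 over all tested genes. Against siMYCN 3 of 5 were called, all higher, beside 26.9% of all tested genes (11.4% higher). In siMYCN limma called 0 of 5 hosts against siCTR, beside 35.9% of all tested genes. The list median was 0.02, beside 0.06 over all tested genes. With the replicate number as a block 1 host was called in siMYCN, MIR99AHG (0.16).

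MIR99AHG, the host of let-7c, miR-99a and miR-125b, read 64.4, 65.0 and 73.3 CPM with siCTR, 67.1, 78.4 and 82.2 with siMYCN and 102, 120 and 135 with siHAND2. Every siHAND2 library was above every other library. The rise was 0.80 on the log2 scale against siCTR (standard error 0.09, limma, adjusted p = 3.5e-06) and 0.64 against siMYCN (adjusted p = 4.0e-05). In siMYCN the difference was 0.16 (adjusted p = 0.167), which reached 0.25 (adjusted p = 0.0410) without siMYCN replicate 1.

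MIR100HG, the host of let-7a-2, miR-100 and a second miR-125b, read 64.3, 63.1 and 63.7 CPM with siCTR, 61.7, 68.8 and 64.0 with siMYCN and 96.5, 91.4 and 114 with siHAND2. The siCTR and siMYCN libraries overlapped and the siHAND2 libraries stood above both. It rose by 0.65 against siCTR (standard error 0.07, limma, adjusted p = 1.6e-06) and by 0.62 against siMYCN (adjusted p = 2.3e-06).

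MIRLET7BHG, the host of let-7a-3 and let-7b, averaged 13.4 ± 1.10 CPM with siCTR, 13.4 ± 0.656 with siMYCN and 16.0 ± 1.01 with siHAND2 (SD, n = 3). Its rise of 0.24 in siHAND2 (limma, adjusted p = 0.0221) missed the threshold when siCTR replicate 1 (0.18) or siHAND2 replicate 2 (0.20) was left out. Against siMYCN its difference of 0.24 (adjusted p = 0.0277) missed the threshold without siMYCN replicate 1 (0.20), siMYCN replicate 3 (0.24) or siHAND2 replicate 2 (0.19), and with no filter on low values (0.24). MIRLET7A1HG, the host of let-7a-1, let-7f-1 and let-7d, stood at 9.26, 9.14 and 9.46 CPM in siCTR, siMYCN and siHAND2. HUWE1, a ubiquitin ligase that hosts let-7f-2 and miR-98, stood at 311, 322 and 325 CPM. Neither was called in any contrast. The fibroblast marker sum given above was higher in siHAND2, where 3 of the 5 hosts were called higher. In siMYCN it was also above siCTR (261 to 270 against 216 to 230 CPM), where 0 of 5 hosts were called. In siCTR and siHAND2, PDGFRA averaged 121 and 341 CPM, PDGFRB 89.8 and 179, LUM 9.15 and 54.7, COL1A2 1.66 and 15.9, and DCN 0.431 and 11.02. COL1A1 averaged 0.720 and 0.363 CPM, the 1 of 6 that was lower in siHAND2. The part of these markers in the host gene result was not tested.

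**Figure D3:**
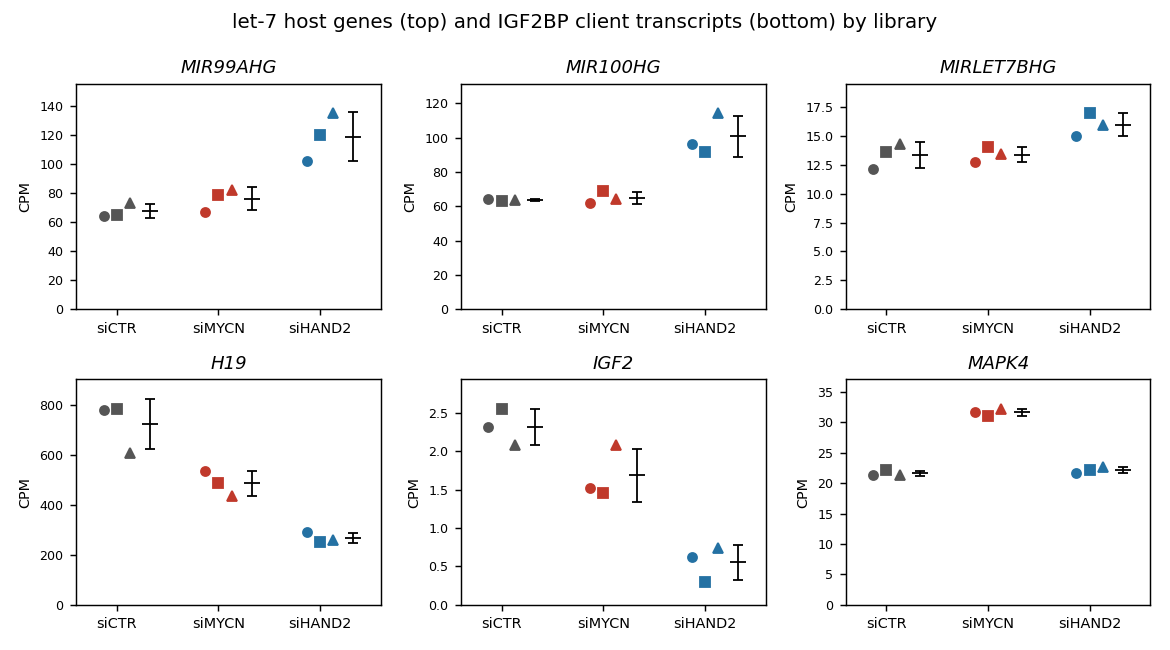
CPM per library (vertical axes from 0, a separate scale per gene) of 3 let-7 host genes in the upper row and 3 transcripts bound by IGF2BP proteins in the lower row, with replicates as circle, square and triangle and the mean ± SD of 3 libraries. MIR99AHG and MIR100HG are highest and H19 and IGF2 lowest in siHAND2, and MAPK4 is highest in siMYCN.

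The list of let-7 and microRNA processing factors, 19 genes, includes the nuclear cutter DROSHA, the exporter XPO5, DICER1, the Argonautes, the uridylating enzymes TUT4 and TUT7 that LIN28 recruits, and KHSRP. In siMYCN 3 were higher and 2 lower, or 26.3% called, beside 35.9% of all tested genes (24.5% higher, 11.4% lower). In siHAND2 6 were higher and 1 lower, or 36.8%, beside 29.9% of all tested genes (18.1% higher, 11.8% lower). XPO5, which carries precursors out of the nucleus, fell from 169 ± 2.41 CPM in siCTR to 125 ± 3.39 with siMYCN (-0.43, limma, adjusted p = 1.2e-06) and 140 ± 5.61 with siHAND2 (-0.28, adjusted p = 1.1e-04). DDX5, a helicase of the microprocessor, rose by 0.23 and 0.27 (adjusted p = 0.00196 and 7.3e-04). HNRNPA1, which binds let-7a precursors, fell by 0.27 in siMYCN (adjusted p = 3.1e-04). AGO4 rose by 0.30 in siHAND2 (adjusted p = 7.7e-04). XPO5 and DDX5 overlap the genes POLR1C and CEP95, which could share reads. The siMYCN count of 5 was 3 without siCTR replicate 1, siCTR replicate 2, siMYCN replicate 2 or siMYCN replicate 3.

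Of 30 reported let-7 targets outside the 7 genes, 28 were tested. In siMYCN 9 were higher and 5 lower, with a median log2 difference of 0.05. In siHAND2 7 were higher and 4 lower, with a median of 0.03. The shares called were 50% and 39.3%, beside 35.9% and 29.9% of all tested genes. Members moved in both directions. CCND1, a G1 cyclin, rose by 0.47 with siMYCN (limma, adjusted p = 1.2e-05) and 0.49 with siHAND2 (adjusted p = 8.9e-06). NRAS, a RAS-family GTPase, fell by 0.29 in siMYCN (adjusted p = 6.2e-05), and its difference in siHAND2 was 0.01. RRM2, a ribonucleotide reductase subunit, rose by 0.26 in siHAND2 (adjusted p = 8.6e-05). It was also called higher in siMYCN, at 108.6% of siCTR. That call was lost under both rescalings (0.062 and 0.056), with no intensity trend, and without siCTR replicate 2 or 3 or siMYCN replicate 1 or 3. After median-ratio rescaling the siMYCN split was 7 higher and 8 lower. CCND1 overlaps LTO1, at a mean of 11.9 CPM.

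Among 12 client transcripts of IGF2BP proteins, H19 and IGF2 fell in siHAND2. In siMYCN 5 were higher and 1 lower, or 50% called, beside 35.9% of all tested genes. In siHAND2 5 were higher and 3 lower, or 66.7%, beside 29.9%. H19, an imprinted noncoding RNA that IGF2BP proteins bind, read 779, 785 and 609 CPM with siCTR, 536, 488 and 437 with siMYCN and 291, 251 and 259 with siHAND2. The 3 groups did not overlap. H19 fell by 0.57 with siMYCN (standard error 0.09, limma, adjusted p = 1.1e-04) and by 1.43 with siHAND2 (adjusted p = 3.8e-09), and siHAND2 was 0.86 below siMYCN on the log2 scale (adjusted p = 1.2e-06).

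IGF2, the growth factor that gave the IGF2BP family its name, was scarce and is named here after its values were seen. It read 2.32, 2.56 and 2.09 CPM with siCTR, 1.53, 1.45 and 2.08 with siMYCN and 0.625, 0.298 and 0.743 with siHAND2. It fell by 1.10 in siHAND2 (limma, adjusted p = 1.6e-05), and its difference in siMYCN was -0.31 (adjusted p = 0.0941).

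MAPK4, a transcript whose translation IGF2BP1 limits, averaged 21.6 ± 0.459, 31.7 ± 0.580 and 22.1 ± 0.450 CPM in siCTR, siMYCN and siHAND2. It rose by 0.53 in siMYCN (adjusted p = 1.6e-06), and siHAND2 was 0.50 below siMYCN (adjusted p = 2.3e-06). ACTB, the beta-actin transcript that IGF2BP1 carries to the cell edge, rose by 0.31 and 0.23. MYC, also outside the naming rule at under 5 CPM, averaged 0.545, 1.89 and 4.71 CPM and rose by 0.90 in siMYCN (adjusted p = 9.1e-05) and 1.88 in siHAND2 (adjusted p = 3.1e-08).

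Of 11 proteins that share IGF2BP granules, 1 was higher and 4 lower in siMYCN, and 1 was higher and 2 lower in siHAND2. The shares called were 45.5% and 27.3%, beside 35.9% and 29.9% of all tested genes. PABPC1, the poly(A)-binding protein, fell from 378 ± 29.7 CPM in siCTR to 247 ± 4.17 with siMYCN (-0.61, limma, adjusted p = 1.8e-07) and 289 ± 4.76 with siHAND2 (-0.38, adjusted p = 2.1e-05). SYNCRIP fell by 0.15 in siMYCN, a call lost without siCTR replicate 1 (-0.12, adjusted p = 0.0595). FMR1, the fragile X protein, rose by 0.20 in siHAND2 (adjusted p = 0.00339). It was also called higher in siMYCN (0.155, limma, adjusted p = 0.0147). That FMR1 call was lost under both rescalings (0.099 and 0.097), and without siCTR replicate 2 or siMYCN replicate 1. YBX1, an RNA-packaging protein, fell by 0.16 with siMYCN (adjusted p = 0.0146), a call that ended when siCTR replicate 1, siCTR replicate 2, siMYCN replicate 2 or siMYCN replicate 3 was left out. Its fall of 0.13 with siHAND2 (adjusted p = 0.0476) ended when siCTR replicate 1, siCTR replicate 2, siMYCN replicate 3, siHAND2 replicate 2 or siHAND2 replicate 3 was. Among the other alternatives, quantile normalization (-0.10 in both contrasts) and no intensity trend ended both YBX1 calls. No filter on low values and a fit of the 2 compared groups alone ended the siHAND2 call. The siMYCN count of 5 was 2 without siCTR replicate 1 and 3 without siCTR replicate 2, siMYCN replicate 1 or siMYCN replicate 2. After quantile normalization the split was 1 higher and 2 lower in siMYCN, and 3 higher and 1 lower in siHAND2.

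The m6A writers, erasers and readers, 18 genes, act upstream of IGF2BP binding. In siMYCN 5 were higher and 2 lower, or 38.9% called, beside 35.9% of all tested genes. In siHAND2 3 were higher and 1 lower, or 22.2%, beside 29.9%. ZC3H13, a subunit of the writer complex, rose by 0.21 and 0.22 in siMYCN and siHAND2 (limma, adjusted p = 0.00291 and 0.00333). The reader YTHDF3 rose by 0.17 and 0.18, and the nuclear reader YTHDC1 by 0.16 in siMYCN. YTHDC1 was also called higher in siHAND2, at 110.7% of siCTR, a call lost without siCTR replicate 2 (0.13). The YTHDF3 call in siMYCN was lost without siMYCN replicate 3 (0.13) and under both rescalings (0.11). The eraser ALKBH5 fell by 0.22 in siHAND2 (adjusted p = 0.00655). The siMYCN count of 7 was 3 without siCTR replicate 2 and 4 without siCTR replicate 1 or siMYCN replicate 3, and after median-ratio rescaling it stood at 2 higher and 4 lower. With the replicate block, the siHAND2 count of 4 became 7.

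Other HMG proteins also shape chromatin. Of the 8 HMGB and HMGN genes tested, 2 were higher and 0 lower in siMYCN, or 25% called, beside 35.9% of all tested genes. In siHAND2 4 were higher and 1, HMGN4, was lower, or 62.5%, beside 29.9%. Over all tested genes, higher genes made up 68.3% of calls in siMYCN and 60.6% in siHAND2 on the deposited CPM. HMGB3 rose by 0.23 and 0.19 in siMYCN and siHAND2 (limma, adjusted p = 0.00114 and 0.00552). HMGB2 rose by 0.13 in siMYCN, a call lost without siCTR replicate 2 (0.12) or siMYCN replicate 1 (0.10), which left a count of 1. It was also lost under median-ratio rescaling (0.073, adjusted p = 0.160) and with no intensity trend (adjusted p = 0.0573). HMGN2, which loosens nucleosomes, rose by 0.22 in siHAND2 (adjusted p = 3.6e-04), and HMGN4 fell by 0.40 (adjusted p = 5.6e-05). After median-ratio rescaling the siMYCN count was 1 higher and 1 lower.

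Of 13 other oncofetal genes, 8 passed the filter. In siMYCN 2 were called, both lower (H19 and TERT), and in siHAND2 4, all lower (H19, IGF2, DLK1 and TERT). The shares called were 25% and 50%, beside 35.9% and 29.9% of all tested genes (11.4% and 11.8% lower). Medians were -0.07 and -0.20 on the log2 scale. DLK1, an imprinted Notch-related membrane protein, averaged 7.87 ± 0.256 CPM with siCTR, 7.98 ± 0.524 with siMYCN and 1.47 ± 0.233 with siHAND2 (-1.85, limma, adjusted p = 4.8e-10). TERT, the telomerase catalytic subunit, averaged 3.53 ± 0.306, 1.71 ± 0.179 and 2.57 ± 0.178 CPM, and is outside the naming rule at under 5 CPM. TRIM71, a let-7 target that marks early embryonic cells and is also outside that rule, read 1.65 to 2.70 CPM over all libraries and was not called. H19 and IGF2 also stand in the client list.

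Each listed gene counted once, 24 of 104 tested were higher and 15 lower in siMYCN, or 37.5%, beside 35.9% of all tested genes. In siHAND2 28 were higher and 14 lower, or 40.4% beside 29.9%. Between the knockdowns 22 were higher and 7 lower in siHAND2, or 27.9% beside 26.9%.

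**Figure D4:**
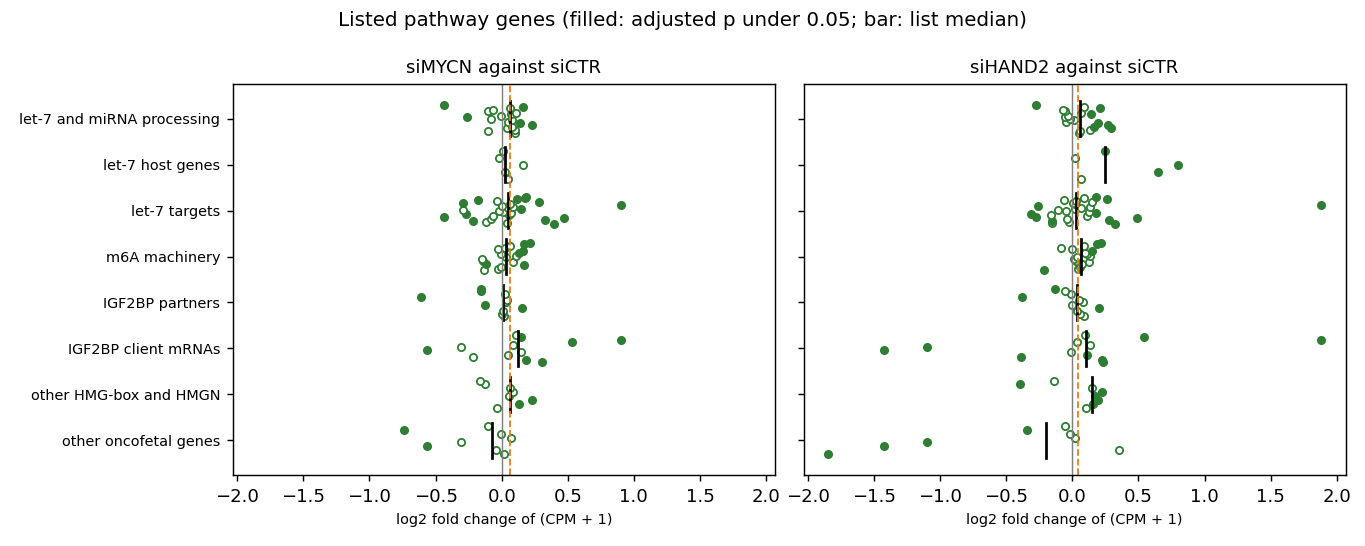
Log2 fold change of (CPM + 1) of each tested gene in the 8 lists, siMYCN on the left and siHAND2 on the right. Filled points passed the adjusted threshold, black bars are list medians and the dashed line is the median of all tested genes. In siHAND2 the let-7 host genes have a median of 0.24, and MIRLET7A1HG, at 0.02, is the 1 of 5 left of the dashed line.

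Across the 9 libraries, the genes with the profile most like each of the 5 were ranked by Pearson r of log2(CPM + 1) among 11200 genes averaging at least 5 CPM. These r describe 9 points in 3 groups that share their libraries. Nearest to HMGA1 were EEF2 (r = 0.975), NEURL1 (0.974) and SLC25A6 (0.974), and nearest to IGF2BP1 were TMEM241 (0.950), MTR (0.941) and ABLIM1 (0.933). LIN28B was nearest to NUDT9 (0.971), GALNT7 (0.959) and ZBTB33 (0.950). IGF2BP2 was nearest to GNG5 (0.927), UQCR11 (0.925) and C12orf76 (0.913), and IGF2BP3 to EBLN3P (0.924), ZNRF2 (0.921) and RSBN1 (0.918). None of the 5 was among the nearest genes of another. Among themselves r ran from -0.20 for LIN28B and IGF2BP2 to 0.71 for IGF2BP1 and IGF2BP3.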

How the data were processed

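RNA sequencing of LAN5 total RNA gave 9 libraries, 3 each for siCTR, siMYCN and siHAND2. The authors deposited 1 table of CPM, reads scaled to one total per library, with a constant of 0.0001 in every value. Reads were aligned with STAR 2.5.1 and processed in Partek, per the submitters' processing notes. The notes name hg19, but 91.4% of 18215 symbols in RefSeq's GRCh38 genes start within 5000 bp of the deposited position, against 5.65% of 18473 in a GRCh37 annotation, so coordinates are given as GRCh38. Counting tool, strand use and multi-mapping rule are not given in the sources used here. Only 78.7% to 80.1% of low values (up to 20 steps) were whole steps within 0.02, so tests stayed on CPM and the step gave only depth.

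One linear model with a mean per group was fitted to log2(CPM + 1) with limma 3.58.1 in R 4.3.3, with an intensity trend and two-sided tests adjusted by Benjamini-Hochberg. The model was tested on simulated data. Errors are SDs or limma standard errors. The labels do not say that equal replicate numbers mark pairs, so the main fit used no pairing. Deviations from group means of equal-numbered libraries correlated at 0.102 to 0.215 between siCTR and siMYCN. Unlike-numbered libraries of these groups correlated at -0.196 to 0.040. Between siCTR and siHAND2 the ranges were 0.121 to 0.266 for equal and -0.273 to 0.179 for unlike numbers. Between siMYCN and siHAND2 they were -0.129 to 0.434 and -0.437 to 0.219. The ranges overlap in the last 2 cases.

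Members and gene lists were chosen with earlier results of these data known. Always named were the members, genes overlapping them, the listed let-7 hosts, MYCN and HAND2. From each list and contrast against siCTR the rule took up to 3 called genes by smallest p, averaging at least 5 CPM, with groups not overlapping. It also took the 3 genes most like each member. Alternatives were pseudocounts of 0.1 and 5, no filter, a 5 CPM filter, median-ratio and quantile scaling, no trend, a replicate block, precision weights, 2 groups alone, Spearman rho, and each library left out. Values of single genes for part of the lists are not reported here. Every value column was used.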

Additional observations from a re-analysis of the deposited data

How the results depend on the processing

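The limits of these values lie in small effects, 3 libraries per group and 1 siRNA per gene. Of the alternatives other than leaving out 1 library, no filter and no intensity trend ended the IGF2BP1 call in siHAND2 (-0.16 in both). IGF2BP3 gained a call in siHAND2 by median ratio (-0.12) and quantiles (-0.12) and in siMYCN by quantiles (-0.12). HMGA1 between the knockdowns became 0.020 by quantiles, and LIN28B in siHAND2 became -0.023 by median ratio and -0.017 by quantiles. Median-ratio and quantile scaling also turned the sign of uncalled values in siMYCN for MIR100HG (-0.032 and -0.035) and MIRLET7BHG (-0.046 and -0.072), and in siHAND2 for MIRLET7A1HG (-0.012 and -0.028). HUWE1 in siMYCN became -0.0095 by median ratio and LIN28B-AS1 -0.031 by quantiles. By Spearman rho, 4 of the 15 genes most like a member stayed among the nearest 3. The cause of these shifts was not tested.

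With 1 library left out, members called ranged from 1 to 2 in siMYCN, 1 to 3 in siHAND2 and 0 to 1 between the knockdowns. IGF2BP1 ranged from -0.26 to -0.16 in siMYCN and -0.19 to -0.10 in siHAND2, and IGF2BP2 from -0.26 to -0.17 in siHAND2 and -0.21 to -0.11 between the knockdowns. HMGA1 between the knockdowns ranged from -0.062 to 0.053 and LIN28B in siHAND2 from -0.044 to 0.064. Uncalled values that crossed 0 were HUWE1 (-0.019 to 0.082 in siMYCN, -0.018 to 0.083 between the knockdowns), LIN28B-AS1 (-0.094 to 0.25 in siMYCN, -0.19 to 0.17 in siHAND2, -0.23 to 0.019 between them), MIR100HG in siMYCN (-0.020 to 0.058), MIRLET7A1HG (-0.091 to 0.041 in siMYCN, -0.051 to 0.12 in siHAND2, -0.031 to 0.14 between them) and MIRLET7BHG in siMYCN (-0.055 to 0.055). All genes called ranged from 4013 to 5854 in siMYCN and 3075 to 4290 in siHAND2, the lowest without siCTR replicate 2.

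With the replicate number as a block, members called were 2, 3 and 0 in siMYCN, siHAND2 and between the knockdowns, and 5895, 5089 and 4689 genes were called in all. The block changed no member's call and, among the other named genes, only that of MIR99AHG in siMYCN (0.16).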
